A study of Mus musculus with 12 samples.

Results

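The antioxidant and glutathione genes of mouse brain myelin are 76 of the 21937 genes in the table of normalized read counts. They were chosen by symbol alone: the superoxide dismutases Sod1 to Sod3, every gene whose symbol opens with Gpx, Prdx, Gst (classes a, k, m, o, p and t), Mgst, Txn or Glrx, and Gclc, Gclm, Gsr, Gss, Nqo1, Hmox1, Hmox2, Nfe2l2, Keap1 and Srxn1. The pattern also took in thioredoxin-domain genes that are no antioxidant enzymes (Txnl4a and Txnl4b, for example, belong to the splicing machinery) and the pseudogenes Gpx2-ps1 and Prdx6-ps1, and all were kept. The 12 libraries came from myelin, a light membrane fraction purified on a sucrose gradient from the brains of wild-type male c57Bl6/N mice, with 3 libraries at each of 4 ages, which were P18 (postnatal day 18), P75, 6 months and, as the oldest, 24 months. The replicates of 6 months came from individual brains, for the other ages the sources used here do not say whether each replicate was a separate mouse, and no treatment is named. The comparisons asked which transcripts changed as myelin passed from active formation to maturity and old age. Purified myelin is not a pure cell type: it holds the RNA that travels with the membrane, and transcripts of other cells of the brain come along with it. Levels here are of a membrane fraction, so fewer cells of a type and less RNA per cell cannot be told apart.

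Reactive oxygen species are cleared in steps. Superoxide dismutases turn superoxide into hydrogen peroxide, which glutathione peroxidases and peroxiredoxins reduce to water at the cost of reduced glutathione or reduced thioredoxin. Glutathione is made by glutamate-cysteine ligase, of which Gclc is the catalytic and Gclm the modifier subunit, and by glutathione synthetase (Gss), and it is returned to its reduced form by glutathione reductase (Gsr). Thioredoxins are likewise reduced by the thioredoxin reductases, while Txnip binds and blocks thioredoxin. Glutathione S-transferases couple glutathione to reactive compounds such as the products of lipid peroxidation. The transcription factor Nrf2 (gene Nfe2l2), held in check by Keap1, drives many of these genes through the antioxidant response element. Oligodendrocytes are known for a high iron content and a high oxidative metabolism together with a lipid-rich membrane.

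The core of the antioxidant response element, TGACNNNGC read on either strand, was searched in the 300 bases from 250 before to 50 after each annotated start in RefSeq (GRCm38.p6). It was present in 14 of the 66 members with a promoter in that table (21.2%) and in 3781 of 27025 genes (14%), and by single promoters in 14 of 88 (15.9%) and 4071 of 32851 (12.4%). The 14 were Gsta3, Nfe2l2, Srxn1, Gstm5, Gstm7, Gclm, Prdx1, Mgst1, Txndc6, Txnrd1, Txndc5, Txndc11, Sod1 and Txndc2; a match says only that these letters occur there. The lines under this paragraph give the 101 bases around the match, all upstream of the start, for 6 members whose changes are described further on: Sod1, Prdx1 and Gclm, which fell from P75 to 6 months, Txnrd1 and Txndc5, which rose in that step, and Mgst1, which rose from P18 to P75. Capitals mark the match, and where it lies on the strand opposite to the gene it reads GCNNNGTCA. The windows are Sod1 chr16:90220660-90220760 on the plus strand, Prdx1 chr4:116685420-116685520 on the plus strand, Gclm chr3:122245377-122245477 on the plus strand, Txnrd1 chr10:82859068-82859168 on the plus strand, Mgst1 chr6:138140425-138140525 on the plus strand and Txndc5 chr13:38527998-38528098 on the minus strand. The match in Prdx1 was the only 1 of the 14 that also spells TGAGTCA, the site of the AP-1 factors.
Sod1: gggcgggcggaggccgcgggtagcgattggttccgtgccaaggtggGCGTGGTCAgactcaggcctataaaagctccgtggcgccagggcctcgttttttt
Prdx1: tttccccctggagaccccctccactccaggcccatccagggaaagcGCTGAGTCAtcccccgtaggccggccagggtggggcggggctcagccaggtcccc
Gclm: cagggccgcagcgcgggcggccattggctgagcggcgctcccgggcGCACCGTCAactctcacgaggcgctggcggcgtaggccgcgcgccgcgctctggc
Txnrd1: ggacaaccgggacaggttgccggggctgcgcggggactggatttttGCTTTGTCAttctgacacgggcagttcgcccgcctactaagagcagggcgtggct
Mgst1: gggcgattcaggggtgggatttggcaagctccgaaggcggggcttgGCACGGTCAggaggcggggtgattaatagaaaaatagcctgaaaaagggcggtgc
Txndc5: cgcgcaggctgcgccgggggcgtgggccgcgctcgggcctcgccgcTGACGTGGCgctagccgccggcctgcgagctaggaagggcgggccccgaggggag

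Of the 14, 12 were abundant enough to be tested for a change with age. From P75 to 6 months 3 of these rose and 7 fell, where 31.2% of all genes rose and 29.4% fell. Of the 50 other tested members 11 rose and 26 fell. These 50 either lacked the letters or had no promoter to search, since only 54 of the 62 tested members had one. From P18 to 24 months 5 rose and 5 fell (median log2 change 0.13), beside 14 and 30 of the 50 others (median -0.33) and 34.7% and 34.3% of all genes; this difference was not tested. Members that carry the letters were thus found among those that rose and among those that fell.

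Sequencing gave 20299052 to 27214385 reads on genes per library. The members together took 0.387 to 0.569% of them. Mbp alone took 9.47 to 20.8% of the reads at P18 and 4.76 to 8.48% at the later ages. The values are counts divided by a size factor, not corrected for transcript length. Of the 76 members, 62 had a mean of 10 or more across the libraries and were tested. The other 14 never exceeded 12.2 in a library: they were Mgst2, Gstp2, Txndc2, Gpx2, Gstm3, Txndc6, Txndc3, Gsta2, Prdx6-ps1, Gstt4, Gsta1 and Gpx2-ps1, and Gpx5 and Txndc8, which were listed at 0 in every library. For Gstp2 the count is uncertain, since its transcript matches a second locus on chromosome 1 of mm9 over 100% of its length at 99.3% identity and resembles its neighbour Gstp1. In all, 15 of the 73 members with a coding transcript had another locus of at least 95% identity over 200 bases or more, among them Gstp1, Gstm1, Gpx4, Prdx1, Txn1, Sod2, Glrx and Glrx3, and reads from such stretches could be split or lost in the counting.

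Per kilobase of merged exons, the only scale on which genes are compared here, Sod1 stood first with a mean of 12233 over the 12 libraries, followed by Gpx4 (5127), Gstm1 (3850), Gstm5 (3827), Mgst3 (3252), Prdx5 (3183), Txn1 (2896) and Prdx1 (2506). Sod1 encodes the copper-zinc enzyme of the cytosol, and Gpx4 the peroxidase that acts on lipid hydroperoxides within membranes. Sod1 exceeded each other member at every age, whereas Gstm1 and Gstm5 changed places between ages. The regulators were lower on this scale: Keap1 had 489 and Nfe2l2 179.7 per kilobase. Without the length correction, 28 members had a mean of at least 1000 and 56 of at least 100, and 8 were among the 1000 highest genes of the table.

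**Figure D1:**
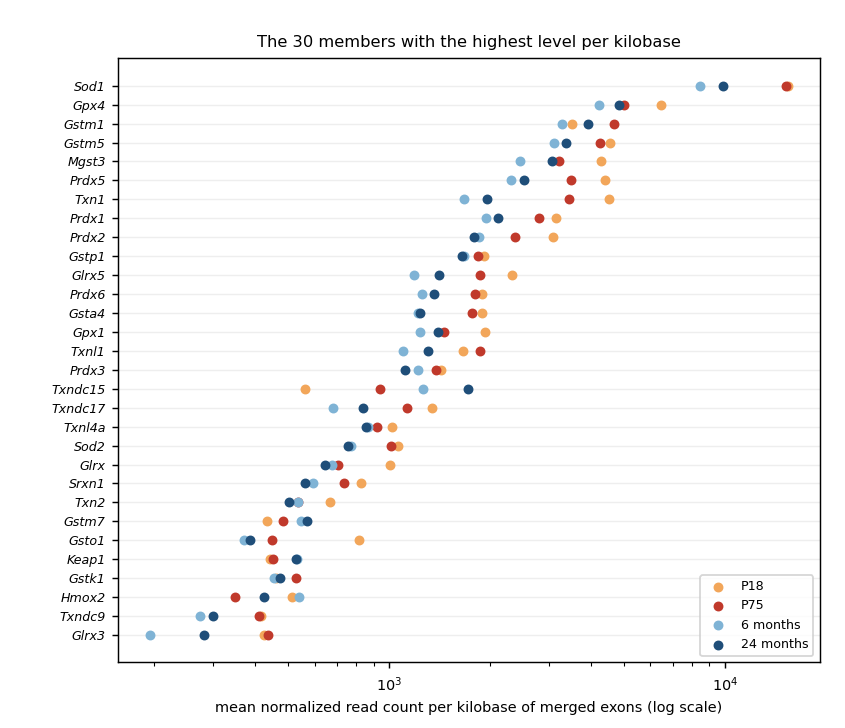
Mean normalized read count per kilobase of merged exons (log scale) of the 30 members highest on this scale, with 1 point per age (mean of 3 libraries). Sod1 lies to the right of all others at each age, and for most members shown the points of 6 and 24 months lie left of those of P18 and P75, while Txndc15 runs the other way.

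Changes were tested with limma on log2(value + 1) over all 14634 genes with a mean of at least 10, and called at an adjusted p under 0.1. Among the 62 tested members, falls outnumbered rises in each comparison but that of 6 with 24 months. From P18 to P75, 15 members rose and 21 fell, against 25.9% of all genes that rose and 22.9% that fell. From P75 to 6 months, 14 rose and 33 fell, where 31.2% and 29.4% of all genes did. Little followed between 6 and 24 months: 9 members rose and 3 fell, beside 16.6% and 12.7% of all genes. The comparisons with 24 months share their libraries with those above. From P18 to 24 months 19 members rose and 35 fell (all genes: 34.7% and 34.3%), and from P75 to 24 months 15 rose and 25 fell (all genes: 28.8% and 26.1%). As shares of the 62, 53.2% fell from P75 to 6 months and 56.5% from P18 to 24 months. The median log2 change of the members came to -0.07 in the first step (to P75), -0.26 in the second (to 6 months), 0.11 from 6 to 24 months and -0.31 from P18 to 24 months, beside medians of 0.02, 0.00506, 0.03 and -0.00963 for all genes. By the means of the ages, 32 of the 62 members were highest at P18 and 27 were lowest at 6 months. These counts were not made over all genes, so they do not set the members apart from other genes.

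The direction from P18 to P75 depended on the scaling. With every library brought to the same total, 20 members rose and 10 fell in place of 15 and 21, and over all genes 4739 rose and 1827 fell in place of 3783 and 3354. That scaling moved the median change of all genes from 0.02 to 0.14. The members' median minus that of all genes was -0.08, as against -0.09 with the deposited size factors. The falls of single members from P18 to P75 given further on are those with the deposited size factors. Not all of them were called at the same total. Quantile normalization moved the median of all genes from P18 to 24 months to -0.12, with 16 members rising and 36 falling. Between 6 and 24 months the same total gave 1394 rises and 1613 falls over all genes, in place of 2435 and 1852, and 5 and 2 over the members. The 12 calls between these ages were also sensitive to single libraries: 7 were left without 6 months replicate 1 and 6 without 24 months replicate 2. No called member changed its sign under any alternative.

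**Figure D2:**
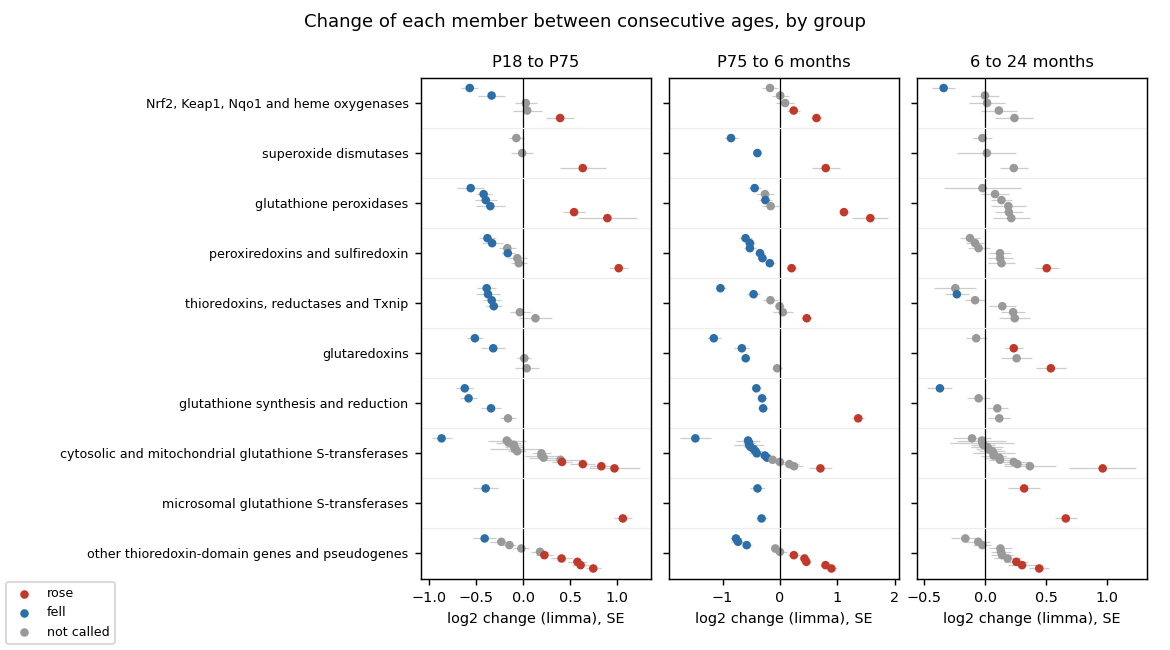
Log2 change (limma, SE as bars) of each tested member between consecutive ages, by group; red rose, blue fell and grey was not called at an adjusted p under 0.1. From P75 to 6 months most points of the peroxiredoxins, glutaredoxins and glutathione S-transferases lie left of 0. Gclc alone among the 4 glutathione synthesis and reduction genes lies to the right. From 6 to 24 months most points are grey, though both microsomal transferases and 2 of 4 glutaredoxins rose, beside 16.6% of all genes. The calls of Mgst3 and Glrx2 from 6 to 24 months were lost without single libraries.

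Many members have short transcripts, and short transcripts of all kinds were mostly lower at 6 months than at P75. The longest annotated transcript had a median of 1600 bases over the tested members and of 3163 over all tested genes with a length. From P75 to 6 months, 74.5% of all genes under 1 kb fell (median log2 change -0.74), 47.0% of those of 1 to 2 kb (-0.24), 25% of those of 2 to 4 kb (0.05) and 18.2% of those over 4 kb (0.14). The members fell in 6 of 8 cases under 1 kb (median log2 change -0.40) and in 17 of 33 of 1 to 2 kb (-0.18). They fell in 8 of 16 of 2 to 4 kb (-0.23) and in 2 of 5 over 4 kb (0.24). Members under 1 kb thus had a median above that of their class, and those of 2 to 4 kb a median below it. Set against the median of all genes in its own length class, the median member stood 0.02 higher from P75 to 6 months, with 30 members below and 32 above their class. For single members the median of all tested genes in the same length class from P75 to 6 months is given as the class median. With all genes cut into finer groups of equal number, the shortest group (median length 984.5 bases) had a median of -0.59 in this step. The next group (1575 bases) had -0.19. Members just over 1 kb lie nearer in length to the shortest group. For them a fall beyond the class median of -0.24 does not show a fall beyond genes of like length. For the median member the other comparisons gave differences from the length class of -0.07 from P18 to P75 and -0.03 from 6 to 24 months. The difference was -0.09 from P18 to 24 months and 0.004 from P75 to 24 months, the latter with 31 members below and 31 above their class. From 6 to 24 months 49.5% of the genes under 1 kb rose. The part of transcript length in the results was not tested.

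**Figure D3:**
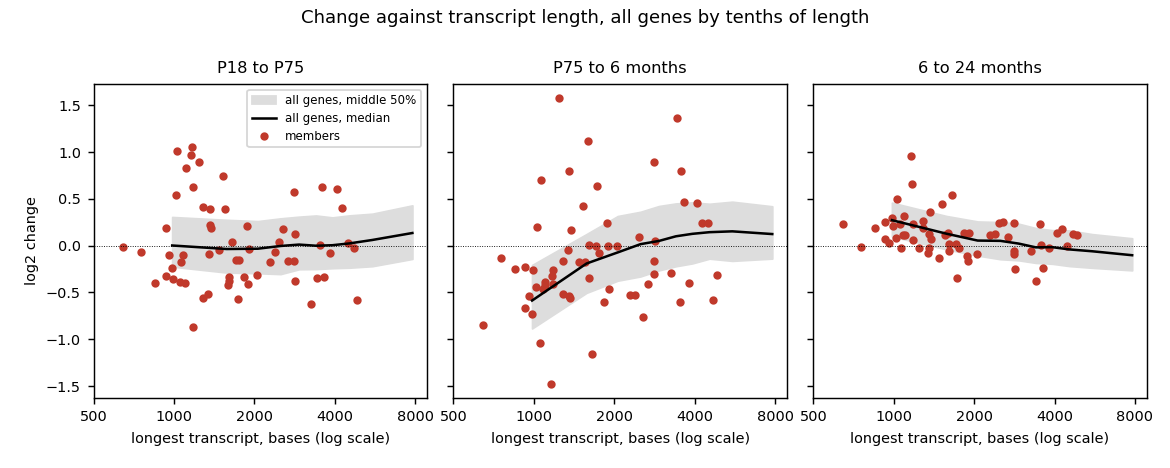
Log2 change of each tested member (red) against the length of its longest transcript (log scale), over the median (line) and the middle 50% (grey) of all tested genes in 10 classes of length with equal numbers of genes. The line climbs from below 0 at the short end to above 0 at the long end from P75 to 6 months and slopes the other way from 6 to 24 months, and the members scatter on both sides of it.

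Of Nfe2l2, Keap1, Nqo1, Hmox1 and Hmox2, none fell and 2 rose from P75 to 6 months, where 29.4% of all genes fell and 31.2% rose. Nfe2l2 itself measured 826, 628 and 444 at P18, 609, 598 and 688 at P75, 659, 689 and 665 at 6 months and 718, 858 and 803 at 24 months. The P18 libraries were spread and overlapped those of each later age. Its change from P18 to 24 months was 0.37 (SE 0.16, adjusted p = 0.0496), a call lost without P18 replicate 3, 24 months replicate 2 or 24 months replicate 3 (adjusted p from 0.101 to 0.313, 1 library left out at a time). Keap1, the adaptor that hands Nrf2 to degradation, had means of 1982 ± 239, 2013 ± 184, 2385 ± 347 and 2370.2 ± 229 (SD, n = 3) in the order of age, its libraries overlapped in every comparison, and an exon of it overlaps a gene on the other strand. The rise of Keap1 from P75 to 6 months, 0.24 (SE 0.12, adjusted p = 0.0918), was lost without P18 replicate 1, P75 replicate 2, P75 replicate 3, 6 months replicate 2 or 24 months replicate 2 (adjusted p from 0.101 to 0.401, 1 library left out at a time). Nqo1, a quinone reductase and standard Nrf2 target, was 184, 145 and 162 at P18 and 204, 209.5 and 228 at P75. The groups did not overlap, with a change of 0.39 (SE 0.15, adjusted p = 0.0425), but the call was lost without P18 replicate 2 or P75 replicate 3 (adjusted p from 0.125 to 0.155, 1 library left out at a time). Hmox1, the inducible heme oxygenase, had 200.2 ± 25.9 at P18 and between 158 and 160.2 on average at the later ages, and its fall from P18 to P75 (-0.34, SE 0.15, adjusted p = 0.0761) was lost without P18 replicate 1, P18 replicate 3, P75 replicate 2 or P75 replicate 3 (adjusted p from 0.112 to 0.249, 1 library left out at a time), and with the replicate block (adjusted p = 0.103).

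Hmox2, the constitutive heme oxygenase, measured 1148, 1162 and 1109.9 at P18, 837, 810.4 and 666 at P75, 1192, 1277 and 1113 at 6 months and 929, 929 and 962 at 24 months. The libraries of P75 lay below those of every other age and the consecutive ages did not overlap. Its log2 change was -0.57 (SE 0.09, adjusted p = 0.000146) from P18 to P75, 0.64 (SE 0.09, adjusted p = 3.10e-05) from P75 to 6 months, where the median of its length class was -0.24, and -0.34 (SE 0.09, adjusted p = 0.0174) from 6 to 24 months. An exon of Hmox2 overlaps a gene on the other strand in the annotation, and whether the counting used strand is not given in the sources used here.

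The 2 intracellular superoxide dismutases fell after P75 and the secreted one rose. Sod1 measured 9068, 9170.3 and 11623 at P18, 9207, 10667 and 9585 at P75, 4609, 5920.4 and 5854 at 6 months and 6549, 6378 and 6198 at 24 months. P18 and P75 overlapped and the older ages lay wholly below them. The change from P75 to 6 months was -0.85 (SE 0.12, adjusted p = 1.94e-05); the class of genes under 1 kb to which Sod1 belongs had a median of -0.74. Sod2, the manganese enzyme of the mitochondrial matrix, went from 3867 ± 126 at P75 to 2943 ± 63.8 at 6 months (SD, n = 3), a change of -0.39 (SE 0.08, adjusted p = 0.00048) against a class median of 0.05. Sod3 is secreted to the extracellular space. Its libraries gave 134, 167 and 97.4 at P18, 261, 248 and 127 at P75, 327, 359 and 368 at 6 months and 279, 347 and 457 at 24 months. Levels were low and spread widely at P75 and 24 months, yet all libraries of 6 months exceeded those of P75 (0.80, SE 0.24, adjusted p = 0.0112) and the rise from P18 to 24 months was 1.44 (SE 0.24, adjusted p = 7.54e-05). The smaller step from P18 to P75 (0.63, SE 0.24, adjusted p = 0.0469) was lost without P18 replicate 3, P75 replicate 1 or P75 replicate 2 (adjusted p from 0.161 to 0.196, 1 library left out at a time).

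Among the glutathione peroxidases, Gpx4 and Gpx1 were lower and Gpx3 and Gpx6 higher at 24 months than at P18. Gpx4 measured 10977, 12671 and 8714 at P18, 7953, 7505 and 9771 at P75, 5663, 8100.4 and 7392 at 6 months and 8974, 8030.2 and 7307 at 24 months. Consecutive ages overlapped throughout, and most of its transcript matches another locus on chromosome 10, so that reads could be split. From P18 to P75 the change was -0.35 (SE 0.15, adjusted p = 0.0743), lost without P18 replicate 1, P18 replicate 2, P75 replicate 1 or P75 replicate 2 (adjusted p from 0.151 to 0.285, 1 library left out at a time); from P18 to 24 months it was -0.40 (SE 0.15, adjusted p = 0.0298), lost without P18 replicate 2 or 24 months replicate 3 (adjusted p from 0.113 to 0.146, 1 library left out at a time). The step from P75 to 6 months (-0.26, SE 0.15, adjusted p = 0.159) did not pass the test. It passed only with a replicate block over P75 and 6 months alone (limma, adjusted p = 0.0484), a setting chosen after seeing the data. The labels name nothing shared by libraries of the same number at different ages. Gpx1, the cytosolic and mitochondrial peroxidase for hydrogen peroxide, averaged 1637 ± 184 at P18 and 1238 ± 113 at P75 (SD, n = 3), with a change of -0.40 (SE 0.12, adjusted p = 0.0107). Its further fall to 6 months (-0.25, SE 0.12, adjusted p = 0.0736) was lost without P75 replicate 3 or 6 months replicate 1 (adjusted p from 0.253 to 0.393, 1 library left out at a time). Gpx3 encodes the secreted peroxidase of plasma. It measured 332, 343 and 321 at P18, 238, 259 and 247 at P75, 559, 538 and 514 at 6 months and 587, 563 and 614 at 24 months. The level fell by P75 (-0.42, SE 0.09, adjusted p = 0.00104) and then exceeded that of both younger ages in every library of 6 and 24 months; the change from P75 to 6 months was 1.11 (SE 0.09, adjusted p = 1.35e-07), where its length class had a median of -0.24. Gpx7 and Gpx8 reside in the endoplasmic reticulum. Gpx7 fell from P18 to P75 (-0.56, SE 0.15, adjusted p = 0.00579), and Gpx8 was higher at P75, with 255 ± 2.23, than at P18 (176 ± 16.2) or 6 months (188 ± 6.64). Gpx6 was near the lower limit, at 5.94, 3.39 and 5.02 at P18 and 25.8, 25.9 and 39.8 at 24 months, with a change of 2.44 (SE 0.31, adjusted p = 4.29e-06).

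All peroxiredoxins but Prdx4 fell from P75 to 6 months. Of the 6 and sulfiredoxin (Srxn1, which repairs overoxidized peroxiredoxins), 6 fell and 1 rose from P75 to 6 months, and the counts were the same from P18 to 24 months. Of all genes, 29.4% fell and 31.2% rose from P75 to 6 months, and 34.3% fell and 34.7% rose from P18 to 24 months. The calls of Prdx3 and Prdx4 from P75 to 6 months were lost without single libraries, as given below. Prdx1 measured 9930.5, 9858 and 9006 at P18, 8019.9, 8363 and 9215 at P75, 5504, 6380.2 and 5926 at 6 months and 6470, 6486 and 6350 at 24 months. All 6 libraries of the older ages lay below the 6 of the younger ones. Its change from P75 to 6 months was -0.52 (SE 0.09, adjusted p = 0.000149), beyond its class median of 0.05. For Prdx2, also of the cytosol, the fall began earlier, with -0.38 (SE 0.09, adjusted p = 0.00288) from P18 to P75 and -0.35 (SE 0.09, adjusted p = 0.00385) from P75 to 6 months (class median -0.24). Prdx5, found in mitochondria, peroxisomes and the cytosol, went from 9443 ± 1233 at P18 through 7480.1 ± 725 at P75 to 4944 ± 567 at 6 months (SD, n = 3), with -0.60 (SE 0.11, adjusted p = 0.000296) in the second step (class median -0.24). Prdx6, which acts with glutathione and also has phospholipase activity, measured 6290.2, 7034 and 6490.3 at P75 and 4204, 5211 and 4414 at 6 months. The groups did not overlap (-0.52, SE 0.10, adjusted p = 0.000476; class median 0.05). In the mitochondrial Prdx3 the step was small (-0.18, SE 0.08, adjusted p = 0.0821); the call was lost without P75 replicate 3, 6 months replicate 1, 6 months replicate 2, 6 months replicate 3 or 24 months replicate 2 (adjusted p from 0.104 to 0.295, 1 library left out at a time), and with the replicate block over all ages (adjusted p = 0.108), but not with the block over P75 and 6 months alone. Srxn1 fell from 2074 ± 49.8 to 1679 ± 89.5 between P75 and 6 months (-0.31, SE 0.08, adjusted p = 0.0032; class median 0.05). Exons of Prdx2 and Prdx5 overlap a gene on the other strand.

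Prdx4 is the peroxiredoxin of the endoplasmic reticulum, where it takes up peroxide made during disulfide formation. It measured 269, 337 and 298 at P18, 565, 579 and 683 at P75, 679, 692 and 724 at 6 months and 1013, 961 and 994 at 24 months. The libraries of P18 were the lowest and those of 24 months the highest, with P75 and 6 months overlapping between them. The change from P18 to P75 was 1.01 (SE 0.10, adjusted p = 2.03e-06), from 6 to 24 months 0.50 (SE 0.10, adjusted p = 0.00383) and from P18 to 24 months 1.72 (SE 0.10, adjusted p = 8.01e-10). The middle step, 0.20 (SE 0.10, adjusted p = 0.0953), was lost without P75 replicate 1, P75 replicate 2, 6 months replicate 1, 6 months replicate 2, 6 months replicate 3, 24 months replicate 1, 24 months replicate 2 or 24 months replicate 3 (adjusted p from 0.107 to 0.27, 1 library left out at a time), and with the replicate block over all ages (adjusted p = 0.103), but not with the block over P75 and 6 months alone. Within each library the ratio of Prdx4 to Prdx1 per kilobase was 0.0391, 0.0494 and 0.0479 at P18 and 0.226, 0.214 and 0.226 at 24 months.

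**Figure D4:**
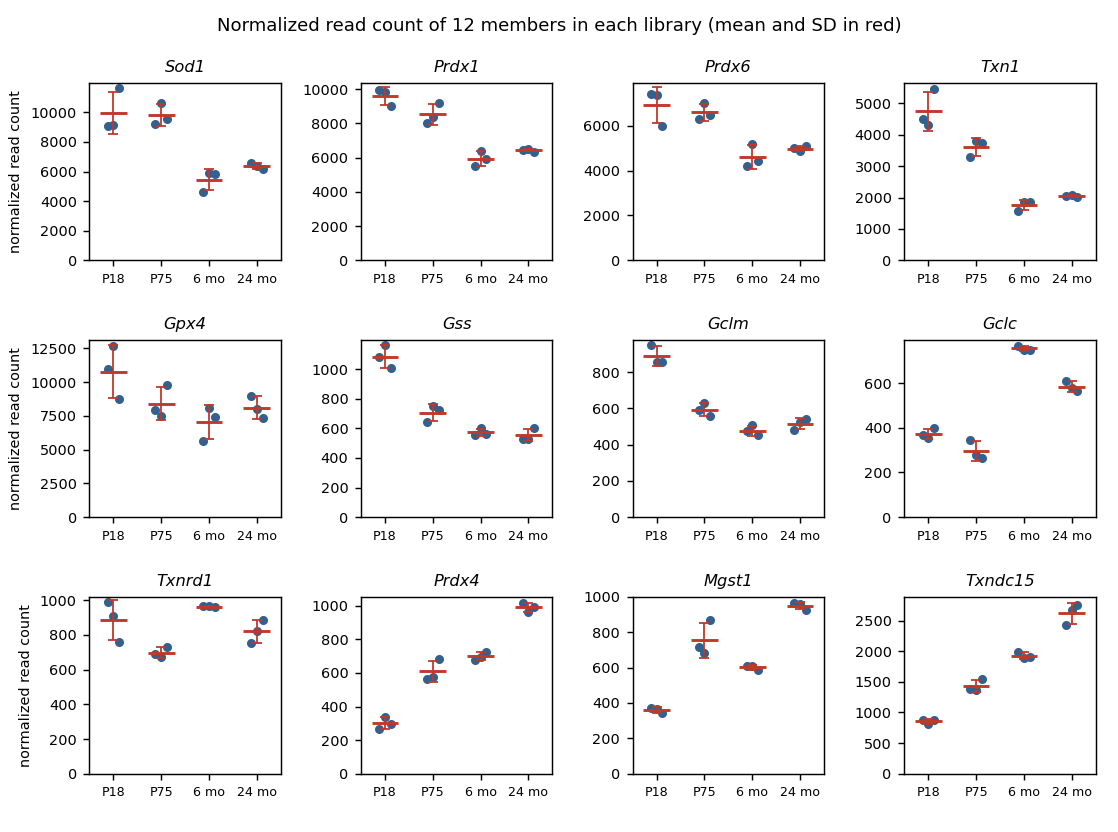
Normalized read count of 12 members in each of the 12 libraries (points), with the mean and SD of the 3 libraries of an age in red; each vertical axis starts at 0. Sod1, Prdx1, Prdx6 and Txn1 drop between P75 and 6 months, Gclc and Txnrd1 are higher at 6 months than at P75, and Prdx4 and Txndc15 climb from P18 to 24 months.

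In the thioredoxin system the thioredoxin and its reductase went opposite ways after P75. Txn1, the cytosolic thioredoxin, measured 4492, 4303 and 5450 at P18, 3288, 3795 and 3748 at P75, 1584, 1843 and 1855 at 6 months and 2052, 2086 and 2028 at 24 months. No library of an older age reached a library of a younger one up to 6 months. It changed by -0.39 (SE 0.10, adjusted p = 0.00487) from P18 to P75 and by -1.04 (SE 0.10, adjusted p = 7.95e-07) from P75 to 6 months, where its class median was -0.24. At 1051 bases Txn1 lies nearest in length to the shortest group of all genes, whose median was -0.59 from P75 to 6 months. Txnrd1, the selenoprotein that reduces Txn1, measured 691, 670.4 and 729.6 at P75 and 965, 965 and 958 at 6 months. All libraries of 6 months were higher (0.47, SE 0.10, adjusted p = 0.000831; class median 0.05), after a fall from P18 to P75 (-0.34, SE 0.10, adjusted p = 0.0112). A second fall from 6 to 24 months (-0.23, SE 0.10, adjusted p = 0.0981) was lost without P18 replicate 2, P75 replicate 1, P75 replicate 2, 6 months replicate 1, 6 months replicate 2, 6 months replicate 3, 24 months replicate 1 or 24 months replicate 2 (adjusted p from 0.112 to 0.297, 1 library left out at a time), and with the replicate block (adjusted p = 0.132). Per kilobase, the ratio of Txnrd1 to Txn1 was 0.0550, 0.0462 and 0.0509 in the libraries of P75, 0.159, 0.137 and 0.135 in those of 6 months and 0.0961, 0.103 and 0.114 in those of 24 months. The mitochondrial pair differed from this. Txn2 fell from P18 to P75 (-0.31, SE 0.08, adjusted p = 0.0059) and measured 2260.1 ± 121 at P75 and 2252 ± 173 at 6 months, while Txnrd2 fell from P75 to 6 months (-0.46, SE 0.11, adjusted p = 0.0022; class median -0.24). For Txnip the means were 795 ± 104, 613 ± 89.6, 542 ± 7.0 and 645 ± 95.8 in the order of age. Its fall from P18 to P75 (-0.38, SE 0.13, adjusted p = 0.0254) was lost without P18 replicate 2 or P75 replicate 1 (adjusted p from 0.113 to 0.137, 1 library left out at a time). Txnrd3, a reductase found mainly in testis, passed the test in no comparison. Exons of Txnip and Txnrd2 overlap a gene on the other strand.

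Each of the 4 glutaredoxins, small enzymes that use glutathione to reduce disulfides, was lower at 24 months than at P18, and 3 fell from P75 to 6 months. Of all genes, 34.3% fell from P18 to 24 months and 29.4% from P75 to 6 months. Glrx3, a cytosolic member that binds iron-sulfur clusters, measured 627, 682 and 848 at P75, 292, 334 and 337 at 6 months and 466, 494 and 437 at 24 months. The 3 ages did not overlap one another. It fell by 1.15 (SE 0.13, adjusted p = 2.56e-06) on the log2 scale and regained 0.54 (SE 0.13, adjusted p = 0.00938), against a class median of -0.24 in the first step. Glrx5, which serves iron-sulfur cluster assembly in mitochondria, went from 1735 ± 198 at P75 to 1105 ± 216 at 6 months (-0.66, SE 0.13, adjusted p = 0.000418; class median -0.74), with 6 months replicate 1 at 857 and the other 2 at 1212 and 1248. Glrx2, of mitochondria and nucleus, went from 1492 ± 66.5 to 986 ± 36.1 in the same step (-0.60, SE 0.07, adjusted p = 7.72e-06, class median 0.05). The rise of Glrx2 from 6 to 24 months (0.23, adjusted p = 0.0379) was lost without 6 months replicate 1, 6 months replicate 2 or 24 months replicate 2. Its adjusted p was then from 0.109 to 0.127, with 1 library left out at a time. Glrx, the cytosolic enzyme, fell earlier, from P18 to P75 (-0.52, SE 0.09, adjusted p = 0.000225).

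The subunits of glutamate-cysteine ligase parted at 6 months. Gclc, the catalytic subunit and the rate-limiting step of glutathione synthesis, measured 367, 356 and 399.8 at P18, 347, 278 and 264 at P75, 769, 752 and 752 at 6 months and 612, 577 and 566 at 24 months. P75 was the lowest age, with a change of -0.34 (SE 0.10, adjusted p = 0.0129) from P18, and every library of 6 months exceeded every library of the other ages. The change from P75 was 1.36 (SE 0.10, adjusted p = 9.29e-08), with a class median of 0.05, and was followed by a fall of 0.37 to 24 months on the log2 scale (SE 0.10, adjusted p = 0.0195). Gclm, the modifier subunit, measured 952, 854 and 857 at P18, 590.2, 628 and 558 at P75, 473, 506 and 452 at 6 months and 481, 527 and 539.7 at 24 months. It fell in both of the first steps, by 0.58 (adjusted p = 9.39e-05) and by 0.31 (adjusted p = 0.00734), the second against a class median of 0.14, and its 6 and 24 month libraries overlapped. The ratio of Gclc to Gclm per kilobase was 0.579, 0.625 and 0.700 at P18, 0.882, 0.665 and 0.710 at P75, 2.44, 2.23 and 2.5 at 6 months and 1.91, 1.65 and 1.57 at 24 months. No library of the younger ages came above 0.882 and none of the older below 1.57. Gss, the second enzyme of the pathway, fell from 1087 ± 77.5 at P18 to 706 ± 57.0 at P75 (-0.62, SE 0.09, adjusted p = 7.14e-05) and on to 575 ± 25.1 at 6 months (-0.29, SE 0.09, adjusted p = 0.013, class median 0.05). The class of Gss follows its longest annotated transcript, of 3258 bases. Its longest coding transcript has 1963 bases, and the class of 1 to 2 kb had a median of -0.24. Gsr went from 978 ± 77.4 at P75 to 734 ± 29.3 at 6 months (-0.41, SE 0.08, adjusted p = 0.000707; class median 0.05). Of these 4 genes, 3 were thus lower and 1 higher at 24 months than at P18, where 34.3% of all genes fell and 34.7% rose. Exons of Gclm and Gss overlap genes on the other strand.

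Among the glutathione S-transferases, Gstm1, Gstm6 and Gstt1 rose to P75 and fell after it. Of the 15 soluble transferases tested, 4 rose and 1 fell from P18 to P75, beside 25.9% and 22.9% of all genes. In the step from P75 to 6 months 1 rose and 10 fell, beside 31.2% and 29.4%. Gstm1, the abundant mu-class enzyme, measured 4669, 4628 and 5402 at P18, 6292, 7498 and 5813 at P75, 4269, 5210.3 and 4235 at 6 months and 5829, 5117 and 5441 at 24 months. The P75 libraries lay above both P18 and 6 months, with changes of 0.41 (SE 0.11, adjusted p = 0.0075) and -0.51 (SE 0.11, adjusted p = 0.00109), the latter against a class median of -0.24. Gstm6 and the theta-class Gstt1 took the same shape at lower levels per kilobase. Gstt1 rose from 288 ± 46.4 to 509.5 ± 56.6 by P75 (0.83, SE 0.12, adjusted p = 6.72e-05) and fell to 379 ± 32.7 at 6 months (-0.43, SE 0.12, adjusted p = 0.00744). Gstm6 changed by 0.63 (SE 0.13, adjusted p = 0.0012) and -0.40 (SE 0.13, adjusted p = 0.0163) in these steps; its exons overlap those of Gstm3, so that reads of the pair could be miscounted. Gstm5 did not pass the test from P18 to P75 (-0.10, SE 0.09, adjusted p = 0.417) and fell to 6 months (-0.46, SE 0.09, adjusted p = 0.00071; class median -0.24). At 1083 bases it lies nearest in length to the shortest group of all genes, whose median was -0.59 from P75 to 6 months. The same step took Gsta4, an alpha-class enzyme for the lipid peroxidation product 4-hydroxynonenal, from 1692 ± 185 to 1164 ± 116 (-0.54, SE 0.10, adjusted p = 0.000434; class median -0.74). Gsto1, of the omega class, measured 1501, 1524 and 1791 at P18 and 851, 1006 and 783 at P75. The groups did not overlap, and its change of -0.87 (SE 0.11, adjusted p = 1.39e-05) was the largest fall of a member from P18 to P75. Gstp1, the pi-class enzyme, did not pass the test between consecutive ages, with means of 1441 ± 56.1, 1385 ± 196, 1261 ± 93.3 and 1244 ± 54.1. Gsta3, near the lower limit, measured 32.1, 38.9 and 46.4 at P75 and 13, 16.9 and 10.7 at 6 months (-1.47, SE 0.27, adjusted p = 0.00032), without overlap. Of the other 7 soluble transferases, Gstk1, Gsto2 and Gstt2 fell and Gstm2 rose from P75 to 6 months, and Gstm4, Gstm7 and Gstt3 passed the test between no consecutive ages. The call of Gstk1 was lost without P75 replicate 2, P75 replicate 3, 6 months replicate 1 or 6 months replicate 3 (adjusted p from 0.114 to 0.248, 1 library left out at a time). The call of Gsto2 was lost without P75 replicate 1, P75 replicate 2, P75 replicate 3, 6 months replicate 1, 6 months replicate 3, 24 months replicate 1, 24 months replicate 2 or 24 months replicate 3 (adjusted p from 0.103 to 0.226, 1 library left out at a time). The call of Gstt2 was lost without P75 replicate 1, P75 replicate 2 or 6 months replicate 1 (adjusted p from 0.101 to 0.179, 1 library left out at a time).

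The microsomal transferases, membrane proteins unrelated in sequence to the soluble ones, split. Mgst1 and Mgst3 have transcripts just over 1 kb (1167 and 1097 bases). Both fell from P75 to 6 months by less than the median of -0.59 in the shortest group of all genes. Mgst1 measured 369.6, 367 and 344 at P18, 715, 681 and 868 at P75, 608, 608 and 587 at 6 months and 962, 959 and 927 at 24 months. No age overlapped another. It rose from P18 to P75 (1.06, SE 0.09, adjusted p = 7.83e-07), fell to 6 months (-0.32, SE 0.09, adjusted p = 0.00821; class median -0.24) and rose again to 24 months (0.66, SE 0.09, adjusted p = 0.000514). Mgst3, with a higher level per kilobase, went the other way in the first step: 3908, 4416 and 5797 at P18 and 3282, 3902 and 3391 at P75 (-0.40, SE 0.13, adjusted p = 0.0206), and 2695 ± 344 at 6 months (-0.39, SE 0.13, adjusted p = 0.0181; class median -0.24). The last of these calls was lost without 6 months replicate 1 (adjusted p = 0.101). Its rise to 24 months (0.32, SE 0.13, adjusted p = 0.093) was lost without P18 replicate 2, P75 replicate 1, P75 replicate 3, 6 months replicate 1, 6 months replicate 3, 24 months replicate 1, 24 months replicate 2 or 24 months replicate 3 (adjusted p from 0.101 to 0.336, 1 library left out at a time).

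Of the remaining thioredoxin-domain genes, Txndc5, Txndc11, Txndc12, Txndc15 and Txndc16 rose and Txnl1, Txndc9 and Txndc17 fell from P75 to 6 months. Txndc5, a disulfide isomerase of the endoplasmic reticulum, measured 465, 506 and 408 at P18, 634, 699 and 716 at P75, 1376, 1205 and 1236 at 6 months and 1155, 1189 and 1319 at 24 months. Both steps up to 6 months were upward without overlap, by 0.57 (SE 0.10, adjusted p = 0.000219) and by 0.90 (SE 0.10, adjusted p = 2.32e-06), where the class median was 0.05 in the second. Txndc15, a transmembrane protein, measured 883, 812 and 872 at P18, 1389.9, 1371 and 1541 at P75, 1986, 1888 and 1902 at 6 months and 2424, 2674 and 2755 at 24 months. It rose in each step, and no age overlapped another; from P18 to 24 months the change was 1.61 (SE 0.08, adjusted p = 2.87e-10). Txndc12 rose mostly from P75 to 6 months, from 496 ± 11.2 to 863 ± 76.4 (0.79, SE 0.09, adjusted p = 4.34e-06; class median -0.24). Txndc16 rose by 0.61 (SE 0.09, adjusted p = 7.33e-05) and 0.46 (SE 0.09, adjusted p = 0.000484) in the first and second step. Txndc11 averaged 333 at P75 and 394 at 6 months. Its rise in this step (0.24, adjusted p = 0.0705) was lost without P75 replicate 1, P75 replicate 3, 6 months replicate 1 or 6 months replicate 3 (adjusted p from 0.113 to 0.224, 1 library left out at a time). In the cytosol, Txnl1, which binds the proteasome, fell from 4786 ± 452 at P75 to 2809.7 ± 194 at 6 months (-0.77, SE 0.10, adjusted p = 1.18e-05; class median 0.05). Txndc17 fell from 1494 ± 97.3 to 904 ± 115 (-0.73, SE 0.12, adjusted p = 9.00e-05), while genes of its length class had a median of -0.74. Txndc9, a regulator of chaperonin-aided folding, went from 2392 ± 187 to 1597 ± 23.1 (-0.58, SE 0.08, adjusted p = 3.51e-05; class median 0.14). The rises of Txnl1 (0.25, SE 0.10, adjusted p = 0.0806) and Txndc17 (0.30, SE 0.12, adjusted p = 0.0813) from 6 to 24 months were lost without 6 months replicate 1, 6 months replicate 2, 24 months replicate 1 or 24 months replicate 2 (adjusted p from 0.185 to 0.239, 1 library left out at a time) and without 6 months replicate 1, 6 months replicate 2, 24 months replicate 1, 24 months replicate 2 or 24 months replicate 3 (adjusted p from 0.121 to 0.311, 1 library left out at a time) respectively, the latter also with the replicate block (adjusted p = 0.109). The splicing genes Txnl4a and Txnl4b fell from P18 to 24 months by 0.26 and 0.58 on the log2 scale (adjusted p = 0.00708 and 0.000522). Exons of Txndc5, Txndc11 and Txndc16 overlap a gene on the other strand.

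**Figure D5:**
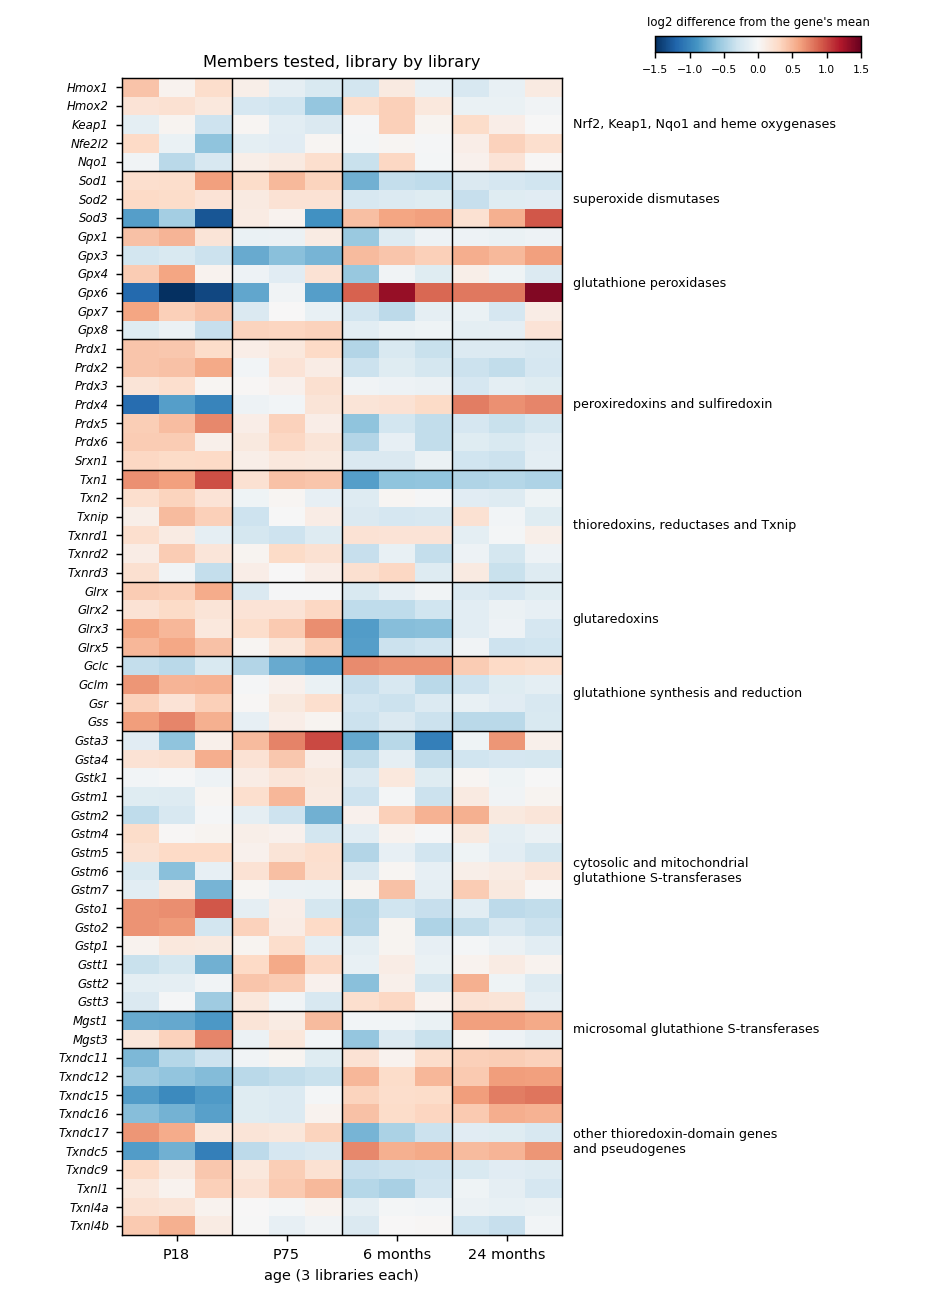
Each of the 62 tested members (by group, from top to bottom) in each of the 12 libraries (by age, from left to right), as the log2 difference from the mean of the gene over the libraries; red is above and blue below it, and the colors end at 1.5 in either direction, which Gpx6 reaches. Sod1, Txn1, Glrx2 and Glrx3 turn from red to blue between P75 and 6 months, and Prdx4, Mgst1, Txndc5, Txndc12, Txndc15 and Txndc16 from blue to red between P18 and 24 months.

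The genes around these enzymes are given by list, and their counts are to be read against all genes, of which 25.9% rose and 22.9% fell from P18 to P75, 31.2% and 29.4% from P75 to 6 months, and 34.7% and 34.3% from P18 to 24 months. The lists of glutathione breakdown and of Nrf2 partners lie near these shares from P75 to 6 months. NADPH pays for the reduction of glutathione and thioredoxin, and of 9 genes that supply it 5 fell and 1 rose from P18 to P75, 4 fell and 3 rose from P75 to 6 months, and 7 fell from P18 to 24 months, where none rose. Idh1, the cytosolic isocitrate dehydrogenase, fell most from P18 to P75 (log2 change -1.20, adjusted p = 2.03e-06), and Nnt, the transhydrogenase of the inner mitochondrial membrane, from P75 to 6 months (-1.21, adjusted p = 2.15e-06). G6pdx, which opens the pentose phosphate pathway, rose from P75 to 6 months instead (0.42, adjusted p = 0.000563).

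Of 18 tested genes of glutathione breakdown, its precursors and cystine uptake, 6 rose and 7 fell from P75 to 6 months and 7 each way from P18 to 24 months. Both chains of the cystine transporter that feeds Gclc rose from P75 to 6 months, Slc7a11 from a mean of 372 to 810.1 (1.12, adjusted p = 0.000192) and Slc3a2 from 1543 to 2653 (0.78, adjusted p = 7.72e-06). Slc3a2 was named for its pairing with Slc7a11 after its values were seen. Ggt7 rose from P18 to 24 months (1.55, adjusted p = 3.65e-09).

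Of 16 other peroxide, methionine sulfoxide and quinone enzymes, 8 fell and 4 rose from P75 to 6 months. Ccs, the chaperone that loads copper into Sod1, fell in the same step as Sod1 (-0.71, adjusted p = 8.80e-05) and was named after its value was seen. Sesn2, a stress-induced sestrin, rose from 33.0 to 157 (2.25, adjusted p = 1.35e-07) and fell again to 85.1 at 24 months (-0.88, adjusted p = 0.00402), and the epoxide hydrolase Ephx1 rose from P18 to 24 months (1.72, adjusted p = 3.66e-09). Of 13 tested genes of selenoprotein synthesis and other selenoproteins, 6 rose and 5 fell from P75 to 6 months. Sephs2, which makes the selenium donor, fell (-0.58, adjusted p = 6.48e-05), and Sepp1, the selenium carrier, rose (0.52, adjusted p = 0.0036). Among 11 partners of Nrf2, 3 rose and 2 fell in that step. Cul3, the ubiquitin ligase scaffold that works with Keap1, rose (0.83, adjusted p = 1.57e-06), while Rbx1, the RING subunit of the same ligase, fell (-0.77, adjusted p = 5.33e-06). Nfe2l1, a relative of Nrf2 in the membrane of the endoplasmic reticulum, rose in both of the first steps (0.69, adjusted p = 9.56e-05 and 0.72, adjusted p = 3.64e-05).

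Markers of other cells were present and moved with age. The 10 myelin markers were all detected, and their summed value ranged from 2486150 to 6209200 at P18 and from 1286060 to 1857400 at P75. It was 1368710 to 2383140 at 6 months and 1461570 to 2069770 at 24 months. Of these 10 markers 8 fell and none rose from P18 to P75, and 2 rose and none fell from P75 to 6 months. The summed value of 10 microglial markers was 5253 to 5684 at P18, 6701 to 7013 at P75, 7869.5 to 9141 at 6 months and 11527 to 14485 at 24 months, without overlap between ages, and 9 of the 10 rose from P18 to 24 months. For 6 choroid plexus markers it was 12612 to 14711, 23529 to 28872, 27541 to 31883 and 42723 to 47354 in this order, and all 6 rose from P18 to 24 months. Both sums were higher at 24 months than at P18, as were Prdx4, Sod3, Gpx3, Mgst1, Txndc5, Txndc12, Txndc15 and Txndc16, although Gpx3 fell from P18 to P75 and Mgst1 from P75 to 6 months; the part of these cells in those results was not tested. The astrocyte sum was 113052 to 153804 at P18 and 152281 to 160187 at 24 months, and the neuronal sum was 181689 to 222946 at P18, 207984 to 231200 at P75, 205279 to 212306 at 6 months and 185917 to 194611 at 24 months. Of the 10 neuronal markers 2 rose and 5 fell from P18 to P75, and 7 rose and 2 fell from P75 to 6 months (median log2 change 0.44, up to 2.34); their part in the results was not tested. Endothelial markers summed to 967 to 1023 at P18, 1327 to 1515 at 6 months and 982 to 1487 at 24 months, and markers of oligodendrocyte precursors to 2557 to 2861 at P18 and 1350 to 1468 at P75. From P18 to 24 months 6 of 10 astrocyte markers rose and 2 fell (median log2 change 0.42). Of 8 endothelial markers 5 rose and 2 fell (0.52), where 34.7% of all genes rose and 34.3% fell. The part of astrocytes and endothelium in the results was not tested either. Of the red blood cell markers, Alas2 was the 1 gene with a mean of at least 10 and the 4 globin genes Hba-a1, Hba-a2, Hbb-b1 and Hbb-b2 were listed at 0 in every library; the summed value was 372 to 500.3 at P18 and 37.1 to 48.1 at P75.

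The genes described at most length lie, in mm9, at chr16:90220987-90226567 (plus strand) for Sod1, chr10:79509911-79519184 (plus strand) for Gpx4, chr4:116358149-116373427 (plus strand) for Prdx1, chr4:57956245-57969283 (minus strand) for Txn1, chr9:77602342-77642292 (plus strand) for Gclc, chr3:121948475-121972902 (plus strand) for Gclm, chrX:151758461-151775297 (minus strand) for Prdx4, chr6:138088837-138105276 (plus strand) for Mgst1, chr13:55816011-55827582 (plus strand) for Txndc15 and chr13:38591948-38620693 (minus strand) for Txndc5. All values are sums over the exons of a gene, and isoforms were not separated.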

How the data were processed

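RNA was sequenced from 12 myelin preparations, 3 at each of 4 ages, grouped by the age in the labels. Per the labels and the study's methods, TopHat placed the reads on the mm9 genome, HTSeq 0.5.4p1 gave counts per gene, and size factors from DESeq scaled them; the deposited values are this normalized signal. The strand setting of the counting is not given in the sources used here. Dividing by the value of 1 read gave whole reads for 100% of the values (tolerance 0.1), with 20299052 to 27214385 reads per library. Genes with a mean of at least 10 (14634 of 21937) were tested with limma 3.58.1 (R 4.3.3) with trend on log2(value + 1), in 1 fit of all libraries, two-sided, with Benjamini-Hochberg adjustment over all of them and calls at an adjusted p under 0.1. The log2(value + 1) scale understates the change of genes with low values. The fit was tested on simulated data. edgeR 4.0.16 and DESeq2 1.42.0 on the recovered reads were alternatives, and edgeR called 3572 rises and 3508 falls between P18 and P75, 4603 and 4345 between P75 and 6 months, 2772 and 1813 between 6 and 24 months, 5072 and 5017 between P18 and 24 months, and 4386 and 3616 between P75 and 24 months. Other alternatives were the pseudocount, the filter, the scaling, the ages fitted, the replicate block and leaving out each library. With 3 against 3 an exact permutation test cannot go below p = 0.1, so none was used; p-values measure only the spread between these samples, which may be technical where separate mice are not stated. Replicate numbers come from the sample names. Deviations of same-numbered libraries correlated at 0.161, 0.101 and 0.187 between P75 and 6 months, all over the limit of 0.1 for pairing, and at -0.21 to -0.03 between the other consecutive ages. Lengths and positions come from GENCODE on mm9, promoters from RefSeq on GRCm38.p6, and copies were sought with minimap2 2.31. Named with values were the 15 members of highest mean, up to 5 largest rises and falls per comparison among called members with a mean of at least 100, a list of 21 core genes, and up to 3 of the largest called changes per pathway list; other names were added after their values were seen. The members and lists were chosen with earlier results of these data known.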

Additional observations from a re-analysis of the deposited data

How the results depend on the processing

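From 6 to 24 months 12 members were called, and 7 with all libraries at the same total; with 1 library left out, 6 to 16 were called. Leaving out 1 library gave 29 to 36 calls from P18 to P75 (36 with all), 38 to 48 from P75 to 6 months (47), 47 to 54 from P18 to 24 months (54) and 34 to 42 from P75 to 24 months (40), and the cause of these losses was not tested. Over the alternatives run, calls held throughout for 21 of 36 members from P18 to P75, 37 of 47 from P75 to 6 months, 6 of 12 from 6 to 24 months, 41 of 54 from P18 to 24 months and 33 of 40 from P75 to 24 months, and no called member changed sign. With the replicate block 34, 45, 10, 54 and 40 members were called in this order of comparisons. Hmox1 and Srxn1 (adjusted p = 0.103 and 0.108) lost their calls from P18 to P75, Prdx3 and Prdx4 from P75 to 6 months, Txndc17 (0.109) and Txnrd1 from 6 to 24 months and Nfe2l2 (0.11) from P75 to 24 months, where Keap1 (0.0801) gained one; the block changed no other call. A block over the libraries of P75 and 6 months alone, chosen after seeing the data, gave 48 calls, with Gpx4 gained and no call lost. Short transcripts, 3 libraries per age and the shared P75 and 6 month libraries of consecutive comparisons limit what the values can show.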
